A study of Homo sapiens with 9 samples.

Results

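Glutathione is the main small thiol of animal cells, and its synthesis is set by the supply of cysteine and by a ligase of paired subunits. The genes described here are the 8 that carry out cystine uptake, glutathione synthesis, its recycling and the supply of cysteine from methionine or from extracellular glutathione: SLC7A11, GCLC, GCLM, GSS, GSR, GGT1, CTH and CBS. They were taken by gene symbol from the deposited table of 58676 genes, and 8 of 8 symbols matched 1 gene each. The RNA came from HaCaT, a spontaneously immortalised line of human skin keratinocytes, cultured in DMEM. The 3 groups, with 3 libraries each, received 10 µM PRL-295, 250 nM CDDO-Me, or 1% DMSO as the control, all for 14 h. CDDO-Me, also called bardoxolone methyl, is a triterpenoid that reacts with thiols and activates NRF2, PRL-295 is named by its code only, and the title of the study concerns non-electrophilic NRF2 activators. The labels name DMSO for the control group alone, the doses of the compounds differ, and all groups are 1 cell line. The labels do not say that the replicates of a group were cultured separately, so p-values measure the spread between these libraries, which may be technical.

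NRF2 is a transcription factor held low by KEAP1, and it drives antioxidant genes through antioxidant response elements when KEAP1 no longer holds it. Cystine enters the cell through system xc-, made of the light chain SLC7A11 and the heavy chain SLC3A2, and is reduced to cysteine inside. GCLC, the catalytic subunit, and GCLM, the modifier subunit, form glutamate-cysteine ligase, the rate-limiting enzyme, after which GSS adds glycine. SLC7A11, GCLC, GCLM and GSR are among the classic targets of NRF2, and SLC7A11 also responds to ATF4, the factor of the amino acid response.

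The libraries held 23383800 to 32942156 reads counted to genes, and 3 counts corresponded to 0.0911 to 0.128 CPM (counts scaled to library size). HMOX1 and NQO1, which are known targets of NRF2, served as a check of treatment. HMOX1 averaged 42.2 ± 4.82 CPM with PRL-295, 362 ± 9.49 CPM with CDDO-Me and 11.1 ± 2.47 CPM with DMSO (SD, n = 3 each), and NQO1 averaged 1089.6 ± 155 CPM, 739 ± 176 CPM and 371 ± 41.8 CPM in the same order of groups. Both passed the test in each comparison with DMSO, except NQO1 with CDDO-Me on omission of DMSO 2 (edgeR adjusted p = 0.0503). The labelled cell type matched its markers: the 8 keratinocyte markers, among them KRT5, KRT14, TP63 and CDH1, summed to 10272 to 11103 CPM with PRL-295, 16902 to 18997 CPM with CDDO-Me and 13073 to 14051 CPM with DMSO. Of these 8, 5 passed the test as lower in PRL-295 against CDDO-Me, and 4 as higher in CDDO-Me against DMSO; the part of this in the results below was not tested. The lists for fibroblasts, melanocytes, immune and endothelial cells summed to 13.1 CPM at most in any library, and TYR, TYROBP, PECAM1, COL3A1, DCN and LUM had 0 counts in all 9. In bulk RNA, fewer cells of a type and less RNA per cell cannot be told apart. Libraries also differed in base composition. The correlation across genes between GC content and the deviation of log2 CPM from the mean of the 9 libraries was -0.30, 0.26 and -0.066 in PRL-295 libraries 1, 2 and 3, -0.023, -0.52 and -0.13 in CDDO-Me libraries 1, 2 and 3, and 0.24, 0.18 and 0.25 in the DMSO libraries, so AT-rich transcripts were relatively low in every DMSO library. Values corrected for this trend and for transcript length are given for several results below. The correction was fitted to each library without regard to its group, while the trend partly follows the groups. It can therefore remove a difference due to treatment along with one of base composition, and these cannot be told apart.

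The regulatory sequence near the start sites is shown because GCLC and GCLM, the partners of 1 enzyme, moved in the same direction while only one of their windows carries the motif searched. RefSeq (GRCh38.p14) gives windows of 300 bases, from 250 before a start to 50 after it, for 5 of the 8 genes: 1 window each for GCLC, GCLM and CTH, and several for GGT1 and CBS. The search covered the core of the antioxidant response element, TGACNNNGC, on both strands, and the GCLM window on chr1:93909381-93909680 (minus strand) and the GCLC window on chr6:53545052-53545351 (minus strand) read as follows, with the match in capitals.
GCLM: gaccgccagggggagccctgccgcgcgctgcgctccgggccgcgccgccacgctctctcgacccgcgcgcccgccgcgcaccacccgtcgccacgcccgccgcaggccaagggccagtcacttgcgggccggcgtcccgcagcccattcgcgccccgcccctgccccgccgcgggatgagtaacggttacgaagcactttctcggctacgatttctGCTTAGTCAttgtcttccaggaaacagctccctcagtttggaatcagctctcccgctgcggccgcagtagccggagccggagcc
GCLC: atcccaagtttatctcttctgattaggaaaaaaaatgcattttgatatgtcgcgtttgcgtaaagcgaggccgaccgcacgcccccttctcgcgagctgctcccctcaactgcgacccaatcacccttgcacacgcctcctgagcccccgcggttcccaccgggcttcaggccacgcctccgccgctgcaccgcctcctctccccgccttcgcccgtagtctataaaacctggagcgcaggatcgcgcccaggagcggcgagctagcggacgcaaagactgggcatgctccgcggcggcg
The match in GCLM, at chr1:93909456-93909464, spans positions -34 to -26 from the RefSeq start and reads TGACTAAGC on the opposite strand. The gene model of the deposited table starts at 93909456, which is the last base of that match. For GCLC the model of that table starts at 53616970, upstream of the printed window, so the window is not at the start of the counted model. The other matches lie in 1 window of CBS (chr21:43076452-43076460, positions -83 to -75) and 1 window of GGT1 (chr22:24603164-24603172, positions -29 to -21), again on the strand opposite to the gene, and are printed as short words with 6 bases on either side.
CBS: ctctggGCGCGGTCAcgcggg
GGT1: ggaggaGCTGGGTCAcagcag
Of the 8 windows of these genes 3 held the core, against 13.3% of the 35116 windows in the whole table. The AP-1 word TGANTCA, held by 7.71% of all windows, and the word TGATGCAA of ATF4 sites, held by 0.866%, were found in no window of these genes. A match is a description of the letters only; for human GCLC, a well-studied response element is known to lie far upstream of this window.

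SLC7A11, GCLC, GCLM and GSR were higher than in DMSO with each compound, and none of the 8 was called lower. All 8 passed the filter on low counts. With PRL-295, 4 of 8 were higher, beside 0.462% of the 16239 tested genes called higher and 0.222% called lower. With CDDO-Me, 4 of 8 were higher, beside 4.65% of the tested genes called higher and 4.57% called lower. The test was edgeR's quasi-likelihood test with Benjamini-Hochberg adjustment over all tested genes and a threshold of 0.05. The median log2 fold change of the 8 was 0.74 with PRL-295 and 0.93 with CDDO-Me, against medians of -0.012 and 0.0078 over all tested genes. The libraries of the compound and of DMSO did not overlap for 6 of the 8 genes with PRL-295 and for 7 of the 8 with CDDO-Me. The share of all tested genes with ranges apart was not computed, so these counts describe the 8 genes only and cannot be set against it. Both comparisons use the same 3 DMSO libraries, so they are not independent of each other.

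**Figure D1:**
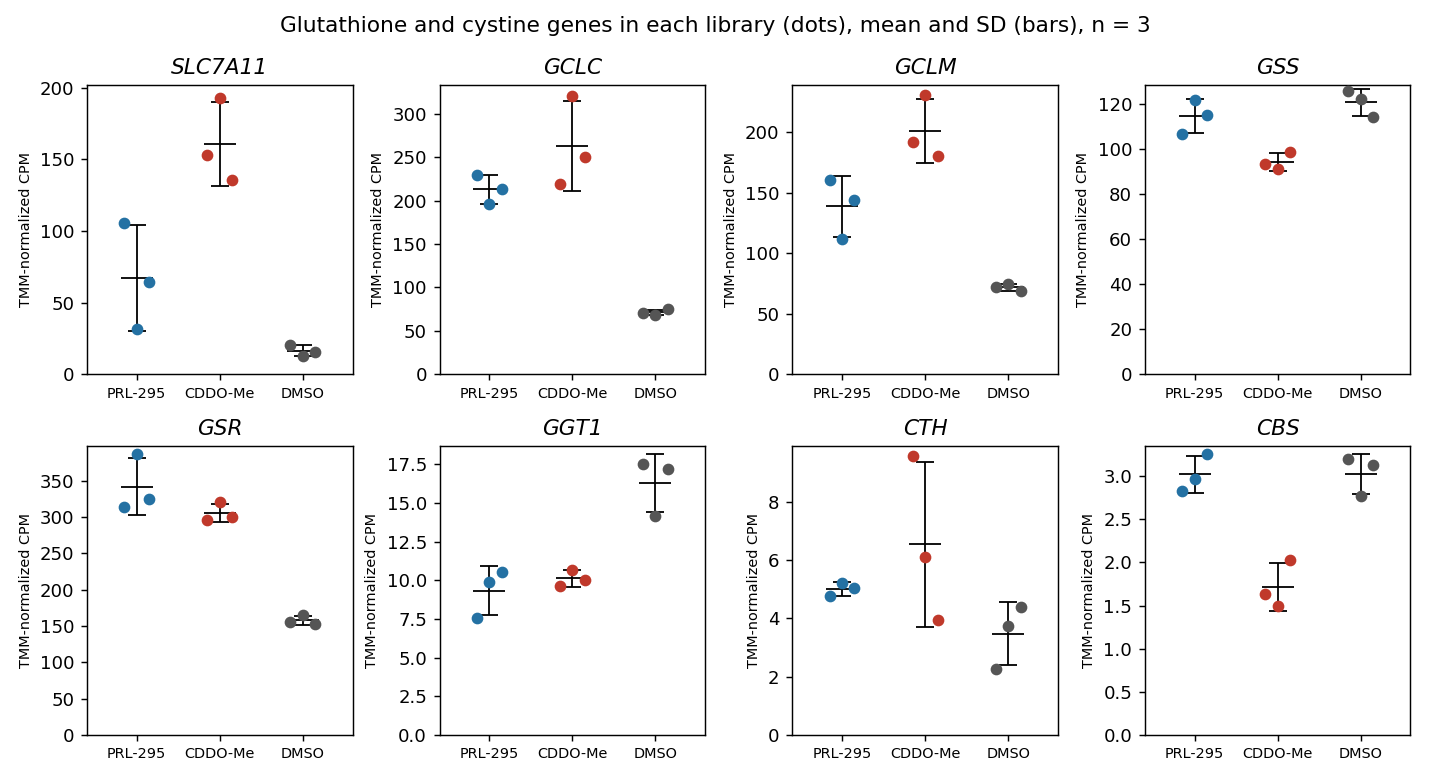
TMM-normalized CPM of each of the 8 genes (vertical axis, from 0, on a scale of its own per gene) in the PRL-295, CDDO-Me and DMSO libraries; dots are libraries, bars the mean and SD of 3. For SLC7A11, GCLC, GCLM and GSR every compound library lies above every DMSO library, and the 3 PRL-295 libraries of SLC7A11 spread between 31.7 and 106 CPM.

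SLC7A11 (chromosome 4, 138164097 to 138242349, minus strand of hg38), the transporter that brings cystine into the cell, had the largest fold change of the 8 genes with either compound. It stood at 106, 31.7 and 64.3 CPM in the PRL-295 libraries, 153, 193 and 136 CPM in the CDDO-Me libraries and 20.4, 13.0 and 15.6 CPM in the DMSO libraries. All 6 compound libraries were above all DMSO libraries, and the PRL-295 libraries differed among themselves more than 3-fold, with no PRL-295 library reaching the lowest CDDO-Me library. SLC7A11 was 4.12-fold higher with PRL-295 (log2 fold change 2.04, 95% interval 1.26 to 2.83, edgeR adjusted p = 0.0311) and 9.85-fold higher with CDDO-Me (log2 fold change 3.30, 2.48 to 4.12, adjusted p = 0.000589). The PRL-295 call was lost on omission of CDDO-Me 3, PRL-295 1, PRL-295 3 or any DMSO library, with log2 fold changes of 1.56 to 2.39 and adjusted p between 0.00147 and 0.189 over the 9 fits; the CDDO-Me call held in all 9.

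The level of SLC7A11, whose longest transcript has 35.4% GC, was read beside the base composition of the libraries. Within the PRL-295 group it was highest in library 1, where the GC correlation was -0.30, and lowest in library 2, where it was 0.26. The other groups did not follow this order throughout: in CDDO-Me it was highest in library 2, with the lowest correlation of that group, and lowest in library 3, and in DMSO it was lowest in library 2, which also had the lowest correlation. After a correction for GC content and length, SLC7A11 stood at 84.8, 55.8 and 67.9 CPM with PRL-295, 113, 115 and 119.6 CPM with CDDO-Me and 22.6, 15.5 and 20.4 CPM with DMSO. The corrected groups were closer within themselves and still did not overlap. The corrected log2 fold changes were 1.84 with PRL-295 (edgeR adjusted p = 0.000408) and 2.57 with CDDO-Me (adjusted p = 9.62e-06), the second of them lower than the uncorrected value by more than 1.5-fold. An RNA on the opposite strand, SLC7A11-AS1, overlaps the gene; it had 47, 6 and 15 counts with PRL-295, 38, 86 and 54 with CDDO-Me and 2, 0 and 1 with DMSO. SLC7A11 itself had 833 to 2575 counts with PRL-295 and 3205 to 5680 with CDDO-Me. The strand setting of the counting is not given, so reads of the 2 cannot be told apart. These counts do not show how reads of the overlap were assigned.

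The subunits of glutamate-cysteine ligase rose with both compounds. GCLC (chromosome 6, 53497341 to 53616970, minus strand) had 229.7, 196 and 214 CPM with PRL-295, 219, 321 and 250.1 CPM with CDDO-Me and 70.1, 68.6 and 74.7 CPM with DMSO. The PRL-295 and CDDO-Me libraries overlapped, and all were above every DMSO library. GCLC was 3.00-fold higher with PRL-295 (log2 fold change 1.58, 95% interval 1.27 to 1.90, edgeR adjusted p = 0.000363) and 3.70-fold higher with CDDO-Me (1.89, 1.57 to 2.20, adjusted p = 4.37e-05), and both calls held in all 9 fits that left out 1 library. The noncoding genes RP1-27K12.2, on the same strand, and RP1-27K12.4, on the opposite one, overlap GCLC. They had at most 73 and 110 counts in any library, against 1729 or more for GCLC, which does not show how reads of the overlaps were assigned.

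GCLM (chromosome 1, 93885205 to 93909456, minus strand), which lowers the amount of glutamate the ligase needs and eases its feedback inhibition by glutathione, had 161, 112 and 144 CPM with PRL-295, 192, 231 and 180.5 CPM with CDDO-Me and 71.8, 74.9 and 68.8 CPM with DMSO. The 3 groups did not overlap, with PRL-295 between the others. GCLM was 1.93-fold higher with PRL-295 (log2 fold change 0.95, 0.63 to 1.28, edgeR adjusted p = 0.0169) and 2.80-fold higher with CDDO-Me (1.49, 1.16 to 1.82, adjusted p = 0.000278). The PRL-295 call was lost on omission of PRL-295 1, PRL-295 3 or any DMSO library, with adjusted p of 0.00463 to 0.11 over the 9 fits. GCLM is also AT-rich (37.3% GC), and its corrected levels were 131, 155 and 145 CPM with PRL-295, 166, 148 and 168 CPM with CDDO-Me and 82.7, 89.0 and 85.7 CPM with DMSO. On that scale the compounds overlapped each other, and both stayed above DMSO, by 0.74 and 0.91 on the log2 scale with PRL-295 and CDDO-Me, and both were called.

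The balance of partner transcripts was described by ratios of FPKM, which is per length. The GCLC to GCLM ratio was 0.915, 1.13 and 0.95 with PRL-295, 0.729, 0.889 and 0.887 with CDDO-Me and 0.625, 0.587 and 0.695 with DMSO, so the groups did not overlap and the catalytic subunit stood higher relative to the modifier in every compound library than in every DMSO library. The ratio was 1.57-fold higher with PRL-295 and 1.31-fold higher with CDDO-Me than with DMSO, and 1.19-fold higher with PRL-295 than with CDDO-Me. In each comparison the exact two-sided permutation p was 0.1, the smallest that 3 against 3 libraries allow. After the GC correction the ratio was 1.10, 0.86 and 0.945 with PRL-295, 0.702, 1.29 and 0.931 with CDDO-Me and 0.602, 0.515 and 0.611 with DMSO. The compounds then overlapped each other, at 1.02-fold between them (exact permutation p = 0.9), and both stayed above DMSO, by 1.68-fold with PRL-295 and 1.65-fold with CDDO-Me (exact permutation p = 0.1 each).

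While SLC7A11, the light chain of system xc-, was higher with both compounds, the heavy chain was called higher with neither. SLC3A2, which also pairs with other amino acid transporters, had 1097, 1252 and 1162 CPM with PRL-295, 775, 653 and 750.2 CPM with CDDO-Me and 965, 1093 and 1043 CPM with DMSO. With CDDO-Me it fell by 0.51 on the log2 scale against DMSO (edgeR adjusted p = 0.013), which did not pass on omission of CDDO-Me 2, DMSO 2 or DMSO 3 (adjusted p = 0.00773 to 0.0742 over the 9 fits) and after the GC correction (log2 fold change -0.24, adjusted p = 0.26); with PRL-295 the log2 fold change was 0.18 (adjusted p = 0.508). The SLC7A11 to SLC3A2 ratio of FPKM was 0.0517, 0.0136 and 0.0297 with PRL-295, 0.106, 0.159 and 0.0971 with CDDO-Me and 0.0114, 0.00637 and 0.00803 with DMSO. It was 3.30-fold higher with PRL-295 and 14.1-fold higher with CDDO-Me than with DMSO. Between the compounds it was 4.27-fold lower with PRL-295, each of these 3 differences with an exact two-sided permutation p of 0.1. After the GC correction these differences were smaller, with ratios of 0.0355, 0.0265 and 0.0294 with PRL-295, 0.0904, 0.0724 and 0.0779 with CDDO-Me and 0.0146, 0.00874 and 0.011 with DMSO. The ratio was then 2.70-fold higher with PRL-295 and 7.13-fold higher with CDDO-Me than with DMSO, and PRL-295 was 2.64-fold below CDDO-Me. The groups still did not overlap (exact permutation p = 0.1 each). SLC3A2 transcripts stayed the more abundant per length in all 9 libraries.

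**Figure D2:**
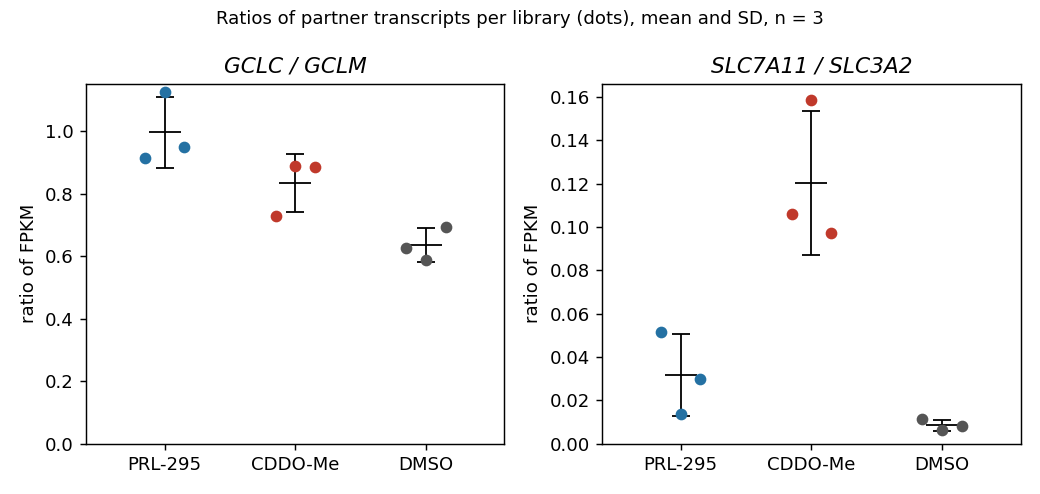
Ratio of FPKM of GCLC to GCLM (left) and of SLC7A11 to SLC3A2 (right) in each library of the PRL-295, CDDO-Me and DMSO groups; dots are libraries, bars the mean and SD of 3, and both axes start at 0. The GCLC to GCLM ratio is highest with PRL-295 (0.997 ± 0.113, before the GC correction), and the SLC7A11 to SLC3A2 ratio is highest with CDDO-Me (0.121 ± 0.0332, before the GC correction).

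GSR (chromosome 8, 30678061 to 30727926, minus strand), which uses NADPH to return glutathione disulfide to glutathione, rose with both compounds. It had 314, 387 and 325 CPM with PRL-295, 296, 320.5 and 301 CPM with CDDO-Me and 156, 165 and 153 CPM with DMSO. Every compound library was above every DMSO library, and the ranges of the compounds overlapped. GSR was 2.17-fold higher with PRL-295 (log2 fold change 1.11, edgeR adjusted p = 0.000583) and 1.94-fold higher with CDDO-Me (0.95, adjusted p = 0.000536), and both calls held in all 9 fits that left out 1 library.

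GSS (chromosome 20, 34928430 to 34955817, minus strand), the enzyme that joins glycine to the dipeptide made by the ligase, passed the test in no comparison. It had 107, 122 and 115 CPM with PRL-295, 93.3, 90.8 and 98.7 CPM with CDDO-Me and 126, 122 and 114 CPM with DMSO. The CDDO-Me libraries lay below all others. The log2 fold change against DMSO was -0.075 with PRL-295 (95% interval -0.30 to 0.15, edgeR adjusted p = 0.85) and -0.35 with CDDO-Me (-0.58 to -0.13, adjusted p = 0.0558). The CDDO-Me value was past the threshold with DESeq2 (adjusted p = 0.0159), and it was -0.042 (adjusted p = 0.888) after the GC correction.

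GGT1 (chromosome 22, 24583750 to 24629005, plus strand), a cell-surface enzyme that starts the breakdown of extracellular glutathione, had 7.55, 9.91 and 10.6 CPM with PRL-295, 9.64, 10.7 and 10.0 CPM with CDDO-Me and 17.5, 14.1 and 17.2 CPM with DMSO. All compound libraries were below all DMSO libraries. The log2 fold change was -0.80 with PRL-295 (95% interval -1.24 to -0.36, edgeR adjusted p = 0.117) and -0.69 with CDDO-Me (-1.13 to -0.25, adjusted p = 0.0559), so neither passed. DESeq2 called GGT1 lower with both (adjusted p = 0.0105 with PRL-295 and 0.0152 with CDDO-Me), and edgeR called it lower with PRL-295 when CDDO-Me 1 was left out (adjusted p = 0.0458). After the GC correction the log2 fold changes were -0.55 and -0.33 (adjusted p = 0.438 and 0.494 with PRL-295 and CDDO-Me). GGT1 overlaps SNRPD3 on the same strand, which had 3224 to 6899 counts per library against 184 to 551 for GGT1, and LRRC75B on the opposite one, so its counts are uncertain.

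The transsulfuration genes, which make cysteine from homocysteine, had few reads assigned to them in these cells. For CBS this may understate the level, because of the copy described below. CTH (chromosome 1, 70411218 to 70439851, plus strand), which releases cysteine from cystathionine, had 4.76, 5.22 and 5.04 CPM with PRL-295, 9.55, 6.11 and 3.94 CPM with CDDO-Me and 2.27, 3.75 and 4.37 CPM with DMSO. The CDDO-Me libraries overlapped both other groups and reached above them, and the PRL-295 libraries lay just above those of DMSO. The log2 fold change was 0.53 with PRL-295 (95% interval -0.28 to 1.33, edgeR adjusted p = 0.606) and 0.91 with CDDO-Me (0.11 to 1.72, adjusted p = 0.141). CBS (chromosome 21, 43053191 to 43076943, minus strand), which makes cystathionine, had 2.83, 2.97 and 3.26 CPM with PRL-295, 1.63, 1.49 and 2.03 CPM with CDDO-Me and 3.20, 2.77 and 3.12 CPM with DMSO. CDDO-Me libraries were the lowest, at 44 to 52 counts each. The log2 fold change was -0.0042 with PRL-295 (95% interval -0.77 to 0.76, adjusted p = 0.998) and -0.82 with CDDO-Me (-1.59 to -0.046, adjusted p = 0.17). CBS has a near-identical copy, CBSL, and reads that fit both may be split between them or left uncounted. How such reads were handled is not given. CBSL had 98, 90 and 89 counts with PRL-295, 218, 74 and 49 with CDDO-Me and 117, 78 and 114 with DMSO. With both summed the CDDO-Me value was -0.25 (edgeR adjusted p = 0.677), and a sum cannot restore reads left uncounted.

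**Figure D3:**
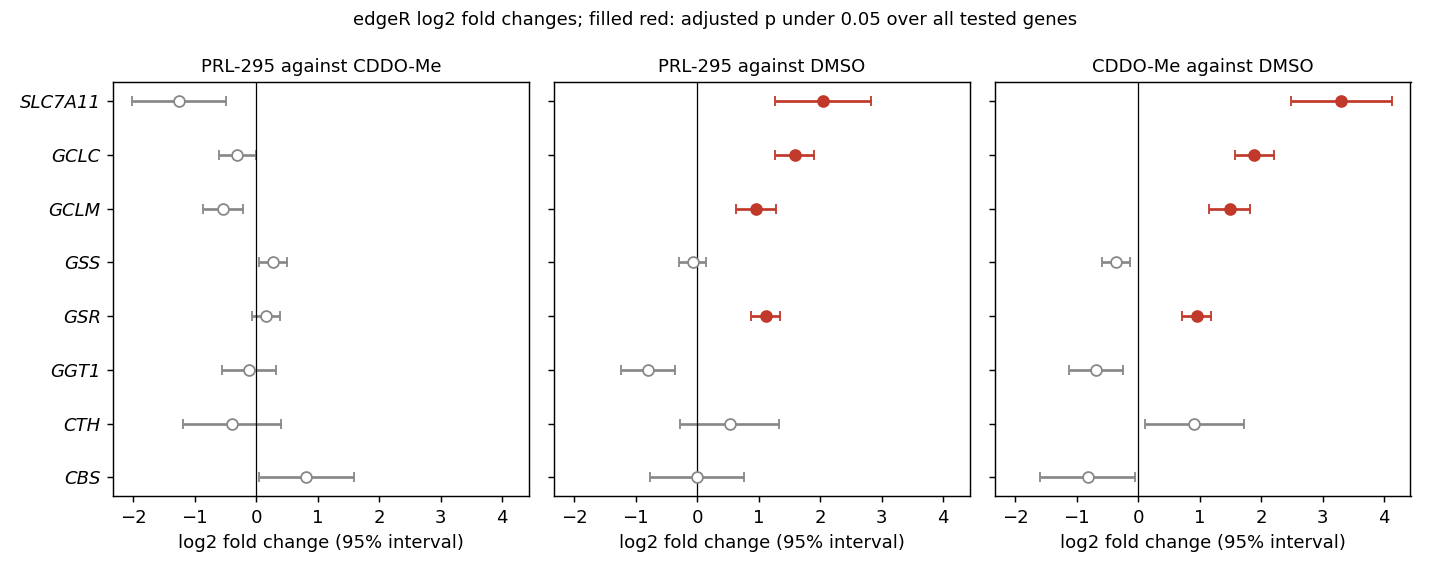
edgeR log2 fold changes (horizontal axis) with 95% intervals of the 8 genes (rows) for PRL-295 against CDDO-Me, PRL-295 against DMSO and CDDO-Me against DMSO; filled red points have an adjusted p under 0.05 over all tested genes, open grey points do not. SLC7A11, GCLC, GCLM and GSR are filled in both comparisons with DMSO, and no gene is filled in PRL-295 against CDDO-Me.

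Set directly against each other at their different doses, PRL-295 and CDDO-Me had 0 of the 8 genes called by edgeR with the filter on low counts. Beside this, 0.905% of the tested genes were called higher and 0.684% lower with PRL-295. At an unadjusted edgeR p under 0.05, 2796 of the 16239 genes and 4 of the 8 differed, namely SLC7A11, GCLM, GSS and CBS. The ranges of the compounds did not overlap for these 4 alone, and after the GC correction they overlapped for GCLM and GSS. How many of all tested genes had ranges apart was not computed. Reads of CBS can be split with its copy CBSL or left uncounted, and CBSL had 98, 90 and 89 counts with PRL-295 and 218, 74 and 49 with CDDO-Me. SLC7A11 was 2.39-fold lower with PRL-295 (log2 fold change -1.26, 95% interval -2.01 to -0.50, adjusted p = 0.1). That difference was called without PRL-295 1 (-1.74, adjusted p = 0.0329), by DESeq2 (adjusted p = 0.00386) and after the GC correction (-0.73, adjusted p = 0.0475). It also passed in edgeR with no filter on low counts (adjusted p = 6.4e-12). That fit called 1250 genes between the compounds, against 258 with the filter. The PRL-295 libraries of SLC7A11 spread from 31.7 to 106 CPM. Why the p without the filter was so small was not tested, so it is not taken as further support. GCLM was 1.45-fold lower with PRL-295 (-0.54, -0.86 to -0.21, edgeR adjusted p = 0.0993). DESeq2 called it (adjusted p = 0.0137), and the GC correction left -0.17 (adjusted p = 0.455). The fit with no filter called GCLM too, with the same limit as for SLC7A11. The intervals of the others allowed differences of -0.61 to 0.0011 for GCLC, -0.071 to 0.39 for GSR, 0.052 to 0.51 for GSS, -0.56 to 0.32 for GGT1, -1.18 to 0.41 for CTH and 0.040 to 1.59 for CBS on the log2 scale. A p above the threshold does not show that the compounds act alike on these genes.

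By FPKM, the order of the 8 transcripts differed between the groups in the places of SLC7A11 and GSR, beside neighbours that overlapped. With PRL-295 the means were 104 for GSR, 58.6 for GSS, 25.3 for GCLM, 24.8 for GCLC, 6.91 for SLC7A11, 2.07 for GGT1, 2.04 for CTH and 0.439 for CBS. With CDDO-Me they were 95.1 for GSR, 49.4 for GSS, 37.4 for GCLM, 31.4 for GCLC, 16.8 for SLC7A11, 2.72 for CTH, 2.30 for GGT1 and 0.255 for CBS. With DMSO they were 63.0 for GSS, 49.0 for GSR, 13.3 for GCLM, 8.45 for GCLC, 3.70 for GGT1, 1.70 for SLC7A11, 1.44 for CTH and 0.449 for CBS. GSR stood above GSS in both compound groups and below it with DMSO. The ranges of neighbours overlapped for GCLM with GCLC and for GGT1 with CTH in both compound groups, and for SLC7A11 with CTH in DMSO. The last place of CBS rests on the reads assigned to it beside its copy CBSL, and may understate its level.

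Around these 8 genes, 6 lists of neighbouring functions held 1 gene that passed with PRL-295 and at least 1 gene each that passed with CDDO-Me. Over all tested genes, 0.462% were called higher and 0.222% lower with PRL-295, and 4.65% higher and 4.57% lower with CDDO-Me. These shares apply beside the counts of every list below, and no list was tested against them. Among transporters of cystine and other amino acids, 9 of 12 were tested: 0 passed with PRL-295, and 2 rose and 2 fell with CDDO-Me, with a median log2 fold change of -0.14 with PRL-295 and -0.25 with CDDO-Me. SLC38A2, a sodium-coupled transporter of neutral amino acids, stood at 149.6, 72.8 and 108 CPM with PRL-295, 153, 363 and 213 CPM with CDDO-Me and 77.0, 83.4 and 83.8 CPM with DMSO. It rose with CDDO-Me (log2 fold change 1.58, edgeR adjusted p = 0.0115), except without DMSO 1 or DMSO 2 (adjusted p = 0.00165 to 0.0609 over the 9 fits), by 0.97 (adjusted p = 0.0129) after the GC correction. Both partners of SLC3A2 in the list moved, in opposite directions. SLC7A8 rose by 1.03 on the log2 scale with CDDO-Me (adjusted p = 0.00203), and SLC7A5, the main carrier of leucine, fell by 0.94 (adjusted p = 0.00451), and both calls held in all 9 fits. Between the compounds, SLC3A2 (log2 fold change 0.69, adjusted p = 0.00777) and SLC7A5 (0.81, adjusted p = 0.025) were higher and SLC7A8 (-0.80, adjusted p = 0.02) lower with PRL-295. The call of SLC3A2 was lost without PRL-295 3 (adjusted p = 0.00705 to 0.0532 over the 9 fits), that of SLC7A5 without DMSO 2, CDDO-Me 3 or any PRL-295 library (0.00292 to 0.101), and that of SLC7A8 without DMSO 2 or any PRL-295 library (0.024 to 0.131).

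In the methionine cycle, transsulfuration and use of cysteine, 14 of 17 genes were tested: 0 passed with PRL-295, and 0 rose and 2 fell with CDDO-Me. SUOX, the mitochondrial sulfite oxidase at the end of cysteine catabolism, had 16.9, 17.9 and 17.4 CPM with PRL-295, 7.17, 8.36 and 6.05 CPM with CDDO-Me and 19.5, 19.1 and 19.3 CPM with DMSO. The CDDO-Me libraries stood far below both other groups. SUOX fell by 1.42 on the log2 scale with CDDO-Me against DMSO (edgeR adjusted p = 0.00114) and was 2.42-fold higher with PRL-295 than with CDDO-Me (log2 fold change 1.27, adjusted p = 0.00676), and both calls held in all 9 fits that left out 1 library. AHCY, which splits S-adenosylhomocysteine into homocysteine and adenosine, fell by 0.62 with CDDO-Me (adjusted p = 0.00865), a call that held in all 9 fits. AHCY was higher with PRL-295 than with CDDO-Me (log2 fold change 0.57, adjusted p = 0.0321), a call that held in 1 of the 9 fits, the one without CDDO-Me 1 (adjusted p = 0.0161 to 0.126).

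Of the genes that export or carry glutathione and its conjugates, all 9 were tested: 1 rose with PRL-295, and 2 rose and 1 fell with CDDO-Me. ABCC3, an efflux pump of conjugates, had 173, 161 and 182 CPM with PRL-295, 266, 206 and 261 CPM with CDDO-Me and 114, 109.6 and 105 CPM with DMSO. The 3 groups did not overlap. ABCC3 rose by 0.65 with PRL-295 (edgeR adjusted p = 0.0359), a call that held in 2 of the 9 fits that left out 1 library, those without CDDO-Me 1 or CDDO-Me 2 (adjusted p = 0.00884 to 0.193), and by 1.16 with CDDO-Me (adjusted p = 0.000321), which held in all 9. ABCC2, a related pump, had 8.17, 6.97 and 7.22 CPM with PRL-295, 7.89, 11.5 and 11.8 CPM with CDDO-Me and 3.73, 4.21 and 4.22 CPM with DMSO. Its log2 fold change was 0.88 with PRL-295 (adjusted p = 0.137, and 0.0308 without CDDO-Me 1), and it rose by 1.36 with CDDO-Me (adjusted p = 0.00738). SLC25A10, the dicarboxylate carrier of mitochondria, fell by 0.78 with CDDO-Me (adjusted p = 0.0285), a call lost on omission of CDDO-Me 2, PRL-295 3 or any DMSO library (adjusted p = 0.0272 to 0.107) and after the GC correction (-0.37, adjusted p = 0.268).

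In the gamma-glutamyl cycle and the breakdown of glutathione, 9 of 14 genes were tested: 0 passed with PRL-295, and 1 rose and 2 fell with CDDO-Me. The gene that rose was GGCT, the gamma-glutamylcyclotransferase (log2 fold change 1.05, edgeR adjusted p = 0.0445), and those that fell were the peptidases LAP3 (-0.53, adjusted p = 0.0223) and CNDP2 (-0.42, adjusted p = 0.034). These calls held in 3, 5 and 3 of the 9 fits without 1 library for GGCT, LAP3 and CNDP2, with adjusted p up to 0.174, 0.0953 and 0.147; GGCT lost its call on omission of CDDO-Me 2, PRL-295 1, PRL-295 3 or any DMSO library, LAP3 without DMSO 2, DMSO 3, CDDO-Me 2 or PRL-295 3, and CNDP2 without CDDO-Me 2, CDDO-Me 3, PRL-295 3 or any DMSO library. After the GC correction only LAP3 of the 3 was called. CHAC1, an intracellular enzyme that degrades glutathione and a target of ATF4, had a log2 fold change of 0.37 with PRL-295 (adjusted p = 0.752) and -0.30 with CDDO-Me (adjusted p = 0.64).

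Among glutaredoxins and glyoxalases, all 7 were tested: 0 passed with PRL-295, and 0 rose and 1 fell with CDDO-Me. That gene was GLRX5, a mitochondrial protein of iron-sulfur cluster assembly (log2 fold change -0.53, edgeR adjusted p = 0.0234), whose call was lost on omission of CDDO-Me 2, CDDO-Me 3, PRL-295 3 or any DMSO library (adjusted p = 0.011 to 0.0989). GLRX5 was still called lower with CDDO-Me after the GC correction. Of the genes of the ATF4 and amino acid response, all 16 were tested: 0 passed with PRL-295, and 1 rose and 1 fell with CDDO-Me. For both lists, the share over all tested genes was 4.65% called higher and 4.57% called lower with CDDO-Me. XPOT, the exporter of transfer RNA from the nucleus, rose by 0.71 with CDDO-Me (adjusted p = 0.0161), but not without DMSO 1, DMSO 3 or CDDO-Me 2 (adjusted p = 0.00536 to 0.0832) nor after the GC correction (0.28, adjusted p = 0.363). DDIT4, an inhibitor of mTORC1 signalling, fell by 0.91 with CDDO-Me (adjusted p = 0.00801), a call lost after the GC correction (-0.53, adjusted p = 0.0755). TRIB3, a target of ATF4 that was named after its values were seen, was called higher with CDDO-Me after that correction (0.61, adjusted p = 0.00293) and not before it (0.26, adjusted p = 0.194). The transcript of ATF4 itself had a log2 fold change of 0.25 with PRL-295 (edgeR adjusted p = 0.591) and -0.24 with CDDO-Me (adjusted p = 0.408). These are RNA levels, and the part of ATF4 in the level of SLC7A11 was not tested.

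**Figure D4:**
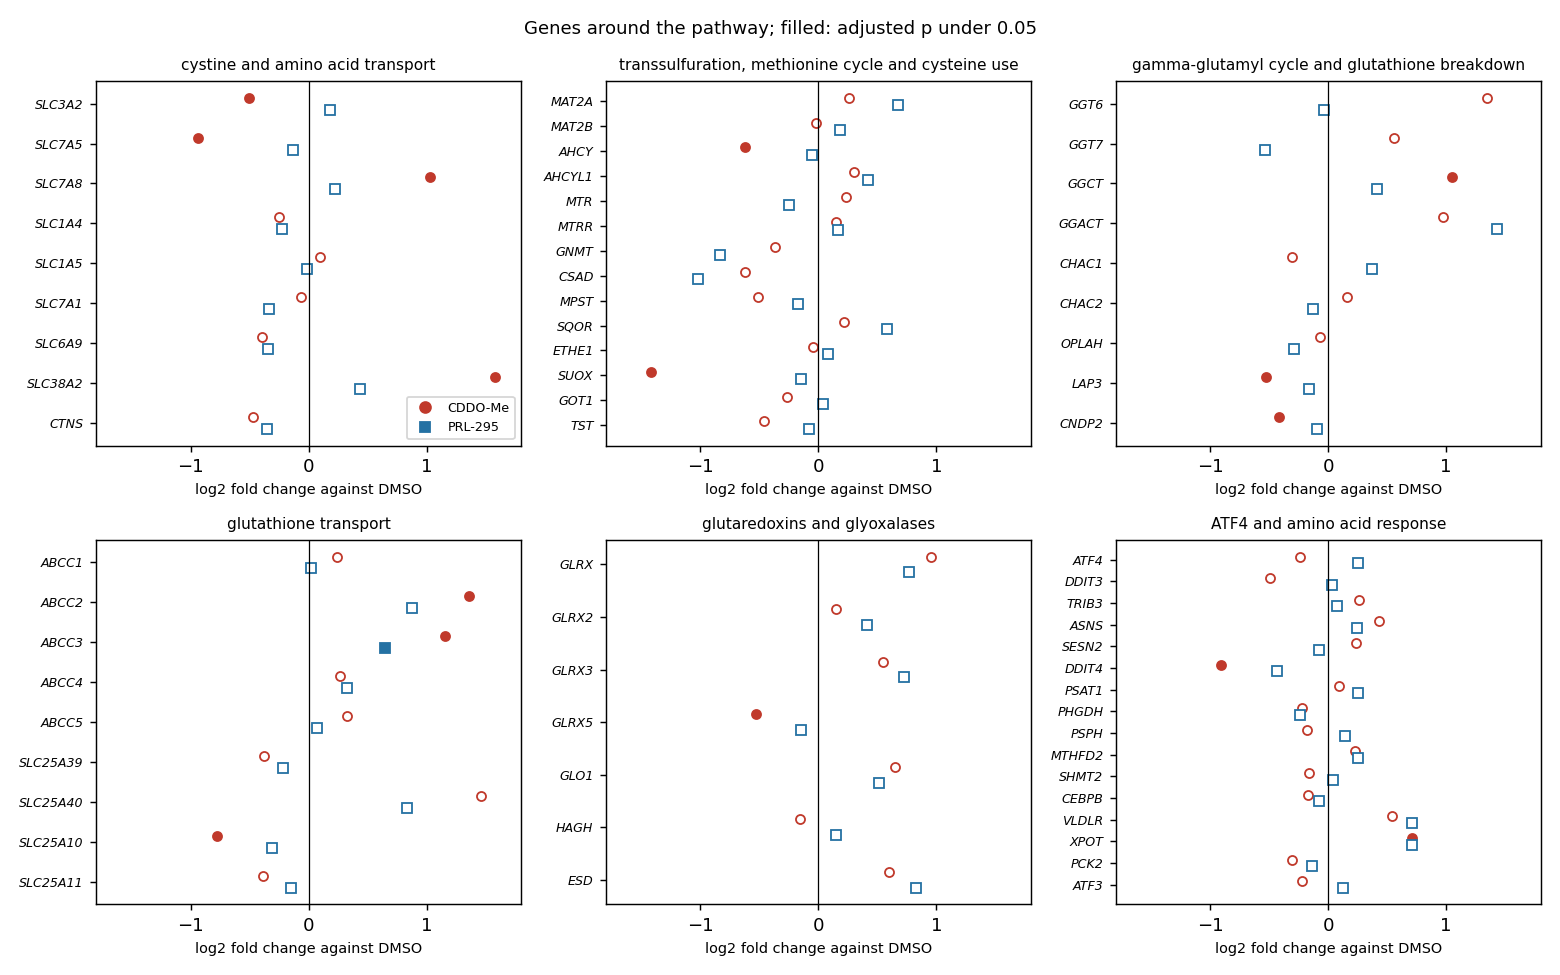
edgeR log2 fold changes against DMSO (horizontal axis) of the tested genes in 6 lists of neighbouring functions (panels); squares are PRL-295, circles CDDO-Me, and filled symbols have an adjusted p under 0.05 over all tested genes. ABCC3 is the only filled square, and filled circles lie on both sides of 0.

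The transcripts whose log2 CPM followed these genes most closely over the 9 libraries were named from the 10247 tested genes that averaged at least 5 CPM. For GCLC they were AKR1C1, an aldo-keto reductase (Pearson r = 0.990), TIPARP, a mono-ADP-ribosyltransferase (r = 0.988), and TXNRD1, the cytosolic thioredoxin reductase (r = 0.988). For GCLM they were MAP2K4, a kinase of stress signalling (r = 0.996), and the microtubule proteins CLASP2 (r = 0.989) and MAP2 (r = 0.986). For SLC7A11 they were CD274, the ligand PD-L1 (r = 0.983), NAV3, a microtubule-associated protein (r = 0.978), and MAP2K4 (r = 0.977). Among the 8 genes, r was 0.983 between GCLM and SLC7A11, 0.958 between GCLC and GCLM and 0.923 between GCLC and SLC7A11, while GSS followed CBS most closely (r = 0.916). These values describe 9 libraries in 3 groups that share library depth and base composition, and each r holds the difference between the groups.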

How the data were processed

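RNA-seq of 9 HaCaT libraries was analysed from the deposited tables. Per the labels' protocols, the authors aligned paired-end reads with STAR 2.5 and counted reads per gene with HTSeq 0.6.1; the build is hg38 per the submitters' processing notes, and the annotation release, the strand setting and the library kit are not given in the sources used here. The deposited counts are raw whole numbers. The deposited FPKM equalled count over gene length and library total for 100% of values above 0 within 0.1%.

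From the counts, genes with low counts were removed with filterByExpr, leaving 16239, libraries were scaled by TMM, and all 9 libraries were fitted in 1 model with edgeR 4.0.16 (quasi-likelihood test, Benjamini-Hochberg over all tested genes, threshold 0.05) in R 4.3.3. CPM in the text are TMM-normalized. FPKM served for levels between genes and for ratios, tested by exact permutation. Alternatives were DESeq2 1.42.0, other scaling, no filter, limma 3.58.1 on log2(FPKM + 1) and log2(FPKM + 0.1), a replicate block, the 6 libraries of each comparison alone, a spline correction for GC content and length (5 degrees of freedom each, with values for 100% of tested genes), and each library left out; summing CBS with CBSL and the GC correction of the ratios were added after seeing the data. The fitting code was tested on simulated data.

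The genes and lists were chosen with earlier results of these data known. The text names all 8 genes, in each list up to 4 called genes with the largest log2 fold change, and for GCLC, GCLM and SLC7A11 the 3 most similar patterns; CHAC1, ATF4 and TRIB3 were named beyond that rule. Depth ranged from 23383800 to 32942156 counted reads, and replicates of a group differed by more than sampling noise, with chi-square per degree of freedom of 12.2 or more. Libraries limit precision by their number, 3 per group. The deposited group FPKM table was not used.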

Additional observations from a re-analysis of the deposited data

How the results depend on the processing

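Of the called genes, SLC7A11, GCLC, GCLM and GSR with CDDO-Me and GCLC and GSR with PRL-295 passed the threshold under all alternatives run. With PRL-295 the number of the 8 genes called higher was 2 with limma at either pseudocount and with the replicate block, and 2 to 4 without 1 library. The number called lower was 1 with DESeq2 and 0 to 1 without 1 library. With CDDO-Me the number called lower was 2 with DESeq2 and 1 with library totals alone and with limma at either pseudocount. Between the compounds the number called lower with PRL-295 was 2 with DESeq2 and with no filter, 1 with the GC and length correction and 0 to 1 without 1 library.

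Over all genes, the 111 calls of PRL-295 against DMSO became 607 with DESeq2, 825 with no filter, 69 and 70 with limma at pseudocounts 1 and 0.1, 650 with only the 6 libraries compared, and 33 to 589 without 1 library. The 1497 calls of CDDO-Me against DMSO became 2616 with DESeq2, 2509 with no filter, 910 with the GC and length correction and 400 to 2803 without 1 library. The 258 calls of PRL-295 against CDDO-Me became 1035 with DESeq2, 1250 with no filter, 45 with only the 6 libraries compared and 60 to 285 without 1 library. The causes were not tested.

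Deviations from the group means correlated at -0.119 to 0.114 between same-numbered libraries and at -0.129 to 0.128 between differently numbered ones. Such deviations from means of 3 libraries showed no pairing by number, and they cannot exclude one. The replicate block gave 60, 864 and 156 calls in these 3 comparisons. Several log2 fold changes turned round, with no call on either side. In PRL-295 against DMSO the GC correction gave 0.11 for AHCY, 0.14 for SLC7A5, 0.15 for CNDP2 and 0.26 for CBS, and AHCY ranged from -0.12 to 0.017 and TRIB3 from -0.013 to 0.14 without 1 library. CBS, at -0.0042, also gave 0.014 with no filter, 0.010 with only the 6 libraries compared, 0.0024 with CBSL summed and -0.064 to 0.046 without 1 library. In PRL-295 against CDDO-Me the GC correction gave -0.025 for GSR and 0.29 for XPOT, GGT1 ranged from -0.16 to 0.019 without 1 library, and XPOT, at -0.0040, gave 0.0037 with no filter, 0.014 with the replicate block and -0.10 to 0.21 without 1 library. The ratios kept their direction as ratios of TMM counts, without 1 library and after the GC correction, which was added after seeing the data and left a log2 difference of 0.027, against 0.26 without it, between the compounds for GCLC to GCLM. Low counts limit CBS most, at 44 to 100 per library, and reads shared with CBSL may be missing from them.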
